A study of Mus musculus with 8 samples.

Results

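Mouse chromosome 15 carries Ppara (mm10 chr15:85734910-85806851), the gene knocked out in 4 of the 8 libraries, and 2107 of the 49587 accessible regions of the series' consensus set lie on it. Every consensus region on that chromosome was taken, whatever its signal, and each of the 2107 was called in at least 1 library. The other 18 autosomes, with 46703 regions, served for comparison. Accessibility was mapped by ATAC-seq, in which a transposase cuts open chromatin, in liver of C57BL/6 male mice aged 9 weeks and fasted for 24 h. The groups were wild type (WT), a liver knockout of Cpt2 (Cpt2 L-/-), a knockout of Ppara (Ppara -/-) and the double knockout (Cpt2 L-/- ; Ppara -/-), with 2 libraries each. The double knockout is labelled as whole-body for Ppara and liver for Cpt2. The labels give neither the targeted exons, the strain of the cells in which Ppara was targeted, the number of backcrosses, nor the driver of the liver deletion. Nothing in the labels says whether the 2 libraries of a genotype came from separate animals, so the p-values below measure only the spread between these libraries.

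Ppara encodes a nuclear receptor that binds fatty acids and, in the fasted liver, turns on genes of fatty acid oxidation and ketone body formation. Cpt2 encodes the inner-membrane carnitine palmitoyltransferase that lets long-chain fatty acids enter mitochondrial oxidation. When a gene is targeted in cells of one mouse strain and the allele is crossed into another, DNA of the first strain that is linked to the allele can be carried along. Such passenger DNA surrounds the targeted gene on the same chromosome and is shared by all mice homozygous for the allele. Peak calls along chromosome 15 show whether accessibility near Ppara differed by genotype more than elsewhere. The strain origin of that DNA was not tested, because the peak lists hold positions and peak statistics but no sequence variants.

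Here a region was called in a library when a peak of that library overlapped it. Ppara-intact libraries are the 4 of WT and Cpt2 L-/-, and Ppara-null libraries are the 4 of Ppara -/- and the double knockout. A region called in all 4 Ppara-intact and in no Ppara-null library is named intact-only, and the reverse null-only.

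The following start sites show the range of patterns on the chromosome. Each line gives the 250 bases before an annotated start, from RefSeq on GRCm38.p6 (the assembly of mm10), written 5′ to 3′ on the strand of the gene. Capitals mark AGGTCA, the core element read by many nuclear receptors, searched on both strands. The Ppara start (chr15:85735526-85735775, plus strand) and the upstream start of Tnrc6b (chr15:80711063-80711312, plus strand) lay in regions called in all 8 libraries. The downstream start of Tnrc6b (chr15:80798360-80798609, plus strand) lay in an intact-only region, as did those of Pnpla3 (chr15:84167566-84167815, plus strand) and Brd1 (chr15:88734220-88734469, minus strand). The start of Gm41331, a long noncoding RNA (chr15:60141661-60141910, plus strand), lay in a null-only region.
Ppara: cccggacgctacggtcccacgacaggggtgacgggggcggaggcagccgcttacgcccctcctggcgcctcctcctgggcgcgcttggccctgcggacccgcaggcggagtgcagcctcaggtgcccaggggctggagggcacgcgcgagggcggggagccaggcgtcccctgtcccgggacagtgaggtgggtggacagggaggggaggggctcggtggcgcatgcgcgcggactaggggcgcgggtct
Tnrc6b upstream start: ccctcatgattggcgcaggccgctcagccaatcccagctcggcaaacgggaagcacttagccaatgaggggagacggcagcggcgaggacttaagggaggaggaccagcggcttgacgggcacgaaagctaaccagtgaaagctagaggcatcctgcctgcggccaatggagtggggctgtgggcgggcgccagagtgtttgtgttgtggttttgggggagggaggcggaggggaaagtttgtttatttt
Tnrc6b downstream start: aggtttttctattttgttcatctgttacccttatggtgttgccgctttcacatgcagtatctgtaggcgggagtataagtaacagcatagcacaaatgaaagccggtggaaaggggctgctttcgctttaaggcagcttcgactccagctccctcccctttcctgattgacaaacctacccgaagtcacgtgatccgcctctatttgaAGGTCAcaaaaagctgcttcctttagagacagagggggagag
Pnpla3: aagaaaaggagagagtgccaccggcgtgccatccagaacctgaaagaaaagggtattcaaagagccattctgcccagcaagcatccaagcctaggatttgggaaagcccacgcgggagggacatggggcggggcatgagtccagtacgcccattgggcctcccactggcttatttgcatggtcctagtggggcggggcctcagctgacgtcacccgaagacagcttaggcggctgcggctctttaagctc
Brd1: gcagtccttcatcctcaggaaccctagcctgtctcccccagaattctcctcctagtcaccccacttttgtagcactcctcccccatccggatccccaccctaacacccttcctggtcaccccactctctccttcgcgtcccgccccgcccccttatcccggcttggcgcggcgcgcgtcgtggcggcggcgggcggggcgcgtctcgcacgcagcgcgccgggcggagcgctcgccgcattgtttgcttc
Gm41331: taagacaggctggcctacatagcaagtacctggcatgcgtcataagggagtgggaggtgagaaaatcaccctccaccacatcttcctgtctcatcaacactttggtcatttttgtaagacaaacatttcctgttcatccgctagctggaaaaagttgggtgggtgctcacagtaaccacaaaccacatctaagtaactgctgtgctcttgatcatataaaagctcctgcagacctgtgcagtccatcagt

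Of the 6 windows, only the downstream start of Tnrc6b, a gene of microRNA-guided silencing, held the element AGGTCA, from base 209 on the plus strand. AGGTCA occurred on either strand in 14.0% of 32851 RefSeq windows of this length and in 16.6% of the 936 on chromosome 15. On chromosome 15 it was in 3 of the 30 windows that overlapped intact-only regions, in 22 of the 165 in regions called in all 8 libraries, and in 0 of the 2 in null-only regions. The direct repeat of AGGTCA with 1 base between its copies, a form bound by Ppara with its partner Rxr, occurred in 11 of the 32851 windows and in 1 on chromosome 15. These matches describe letters in a window and not bound sites. The 2 starts of Tnrc6b thus differed within 1 gene: the upstream region (80710576 to 80711507) was called in 8 libraries. The downstream region (80798371 to 80798710) was called in 4 Ppara-intact and 0 Ppara-null libraries, also when every list was cut to the same number of peaks. In the cut lists, 0 Ppara-intact and 0 Ppara-null libraries called the region of the Pnpla3 start or that of the Brd1 start. The Gm41331 region stayed called in 4 Ppara-null and 0 Ppara-intact libraries.

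Lists differed in length along with genotype. WT had 28733 and 36141 peaks and Cpt2 L-/- had 39296 and 35908, against 20340 and 18283 in Ppara -/- and 22715 and 18132 in the double knockout. Counts are therefore also given on equal-number lists, which keep the strongest 18132 peaks of each library by the deposited −log10 p. The deposited peak names carry a number whose meaning is not stated. It was 441, 443, 446 or 4717 for Ppara-intact libraries and ran from 6831 to 6834 for the rest. Any difference in handling that these numbers may record cannot be told apart from Ppara status. Of 45 regions within 1 kb of 8 hepatocyte marker genes, Ppara-intact libraries called 21 to 30 and Ppara-null libraries 19 to 24. Each library had a peak at 7 or 8 of these genes, with none at Fgb in Ppara -/- replicate 2 and double knockout replicate 1. Marker counts used all peaks, with which Ppara-intact libraries called 56.9% to 77.7% of the regions of the other autosomes and Ppara-null libraries 35.7% to 44.6%. Of 30 regions at 5 endothelial marker genes, Ppara-intact libraries called 9 to 20 and Ppara-null libraries 3 to 5. In Ppara-null libraries Pecam1, Clec4g and Lyve1 had none. Clec4g also had none in WT replicate 1 and Cpt2 L-/- replicate 2, and Lyve1 none in WT replicate 1. Kupffer and immune genes had 1 to 3 of 4 regions called against 0 to 2, with no region at Clec4f, Ptprc, Adgre1 or Cd3e. Cholangiocyte genes had 2 to 3 of 3 against 0 to 1, with none at Krt19, Krt7 or Spp1. Stellate cell genes had 0 to 2 of 2 against 0, with none at Dcn, Des or Rgs5. The part of these cell types in the chromosome 15 differences was not tested. In bulk liver, fewer cells of a type and less accessibility per cell cannot be told apart.

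Ppara itself had 10 regions within 1 kb, and every Ppara-null library had peaks at the targeted gene. The region over its start (85734711 to 85736214) had −log10 p values of 108 and 119.5 in WT and of 73.98 and 64.95 in Cpt2 L-/-. In that region the values were 20.26 and 29.42 in Ppara -/- and 32.67 and 32.57 in the double knockout. All 4 Ppara-intact values were above all 4 Ppara-null values, though −log10 p also depends on depth, which the files do not give. As percentiles of the library's own list, where 100 is the strongest peak, the order was kept, with 78.4 to 93.9 against 46.3 to 75.4. Percentiles move with list length too, because the same place from the top is a higher percentile in a longer list. Ppara-intact lists were the longer ones, so this order does not set list length aside. A region inside the gene (85787162 to 85787937) had the same order, with 128.1, 187.3, 195.6 and 182.5 in the Ppara-intact and 32.32, 36.77, 71.25 and 30.67 in the Ppara-null libraries. Its percentiles were 96.3 to 98.9 against 72.4 to 94.1.

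Between these, 3 regions inside Ppara were intact-only. The region at 85774288 to 85774815 was the strongest of them, with −log10 p of 62.11 and 115.6 in WT and 117.1 and 98.19 in Cpt2 L-/-. It was also the only 1 of the 3 that stayed called in 4 Ppara-intact and 0 Ppara-null equal-number lists. The region at 85742635 to 85742997 had 18.69, 53.14, 44.46 and 19.17, and that at 85762806 to 85763305 had 45.87, 45.67, 36.23 and 18.12. Each of these was called in 2 Ppara-intact equal-number lists.

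The remaining 5 regions at Ppara were not separated by its status. The region at 85771303 to 85771660 was called in 6 libraries, missing only in both of Ppara -/-. The regions at 85771725 to 85772359 and 85776887 to 85777202 were called in 7 libraries, missing only in Ppara -/- replicate 2. The region at 85754178 to 85754588 was called in Cpt2 L-/- replicate 1 and Ppara -/- replicate 1. The region at 85746157 to 85746441 was called in Ppara -/- replicate 1 alone, at a −log10 p of 9.179. With the deleted part of the gene unknown, these calls do not check the knockout.

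**Figure D1:**
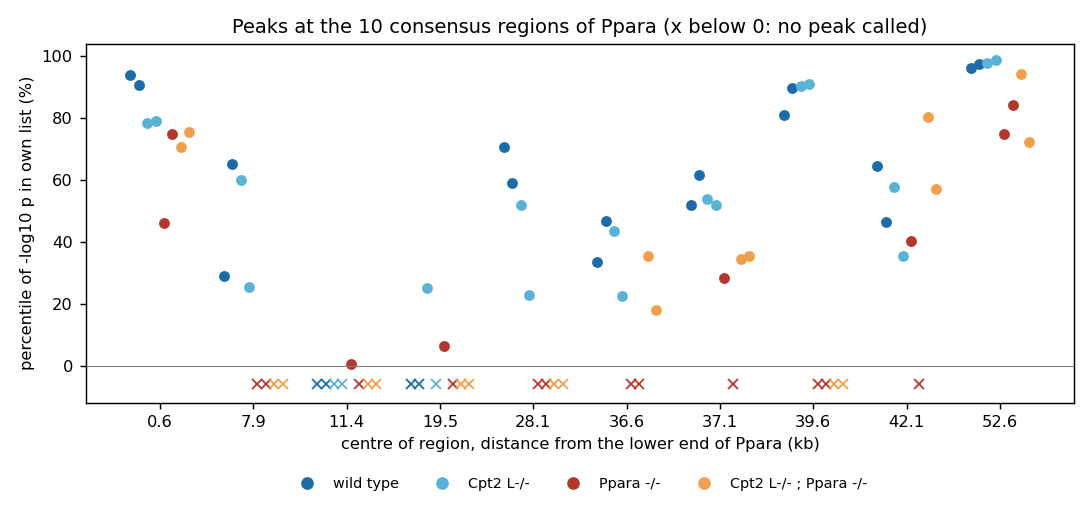
Percentile of a peak's −log10 p within its own library's list (y axis, percent, 100 the strongest) in the 10 regions within 1 kb of Ppara, 1 point per library coloured by genotype, with a cross below 0 where no peak was called. Regions are evenly spaced and named on the x axis by the distance of their centre from the gene's lower end in kb. The 3 regions with points from the 4 Ppara-intact libraries alone lie inside the gene, and the first and last regions have points from all 8 libraries.

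Over the whole chromosome, 158 of 2107 regions (7.50%) were intact-only, where the share over all 49587 consensus regions was 6.82% and that of the other autosomes 6.78%. Null-only regions numbered 5 (0.237%), where the share over all regions was 0.0686%. Chromosome 15 ranked 4 among the 19 autosomes for its intact-only share and 1 for its null-only share. In the equal-number lists, 21 regions (0.997%) were intact-only against 0.811% over all regions, which again ranked 4. There the null-only regions numbered 8 (0.380%) against 0.512% over all regions, which ranked 15. The excess of null-only calls on chromosome 15 was thus not present when the lists had equal length. It was present at a −log10 q of at least 20, with 2 regions (0.0949%, against 0.0193% on the other autosomes), and with 50% cover, with 3 regions (0.142% against 0.05995%). Of the 158 intact-only regions, 15 remained so in the equal-number lists (9.49%), close to 9.53% of the 3168 on the other autosomes.

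The share of regions called was next set against each library's own share on the other autosomes with the same list, although these values still moved with the length of the list. WT called 55.6% and 70.8% of the chromosome 15 regions, which differed from its share on the other autosomes by -1.33 and -0.944 percentage points. Cpt2 L-/- called 77.7% and 71.8%, with differences of 0.0456 and 0.502 points. Ppara -/- called 37.3% and 33.0%, with differences of -2.70 and -2.78 points. The double knockout called 43.8% and 34.3%, with differences of -0.836 and -1.36 points. Ppara -/- thus lay lowest, while WT and the double knockout overlapped. The mean was -0.432 ± 0.851 points (SD, n = 4) in Ppara-intact and -1.92 ± 0.972 points (SD, n = 4) in Ppara-null libraries. The difference of 1.49 points did not pass the test (exact two-sided permutation test over 70 orders, p = 0.114, 0.152 after Benjamini-Hochberg adjustment over 4 tests). The smallest p this design allows is 0.0286, and 0.0571 after that adjustment.

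By Cpt2 status the relation went the other way: the 4 Cpt2-intact libraries (WT and Ppara -/-) differed by -1.53 points from the 4 Cpt2-null libraries (-1.94 ± 0.938 against -0.411 ± 0.840, SD, n = 4 each). The groups overlapped, and the exact two-sided permutation test gave p = 0.0857 (0.152 adjusted). Peaks on chromosome 15 made up 4.29% ± 0.0521 of a Ppara-intact library's autosomal peaks and 4.09% ± 0.123 of a Ppara-null one's (SD, n = 4 each). The single values were 4.22% and 4.28% in WT, 4.32% and 4.34% in Cpt2 L-/-, 4.01% and 3.97% in Ppara -/-, and 4.24% and 4.15% in the double knockout. WT replicate 1 and double knockout replicate 1 overlapped, and the exact two-sided permutation p was 0.0571.

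Other autosomes showed differences of the same size. The called share on chromosome 15 fell from Ppara-intact to Ppara-null libraries by a mean of 31.9 points, which ranked 4 among the autosomes, after chromosomes 19 (34.8), 11 (33.4) and 12 (32.3). The lowest difference was 27.3 points on chromosome 3. In the equal-number lists the difference was 1.78 points on chromosome 15, which ranked 3, in a range from -1.39 to 3.65 over the other 18. Relative to its own level elsewhere, with all peaks every Ppara-intact library lay above every Ppara-null library on 2 of the other 18 autosomes (11 and 19) and below on 4 (1, 2, 3 and 17). On chromosome 15 the groups overlapped.

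**Figure D2:**
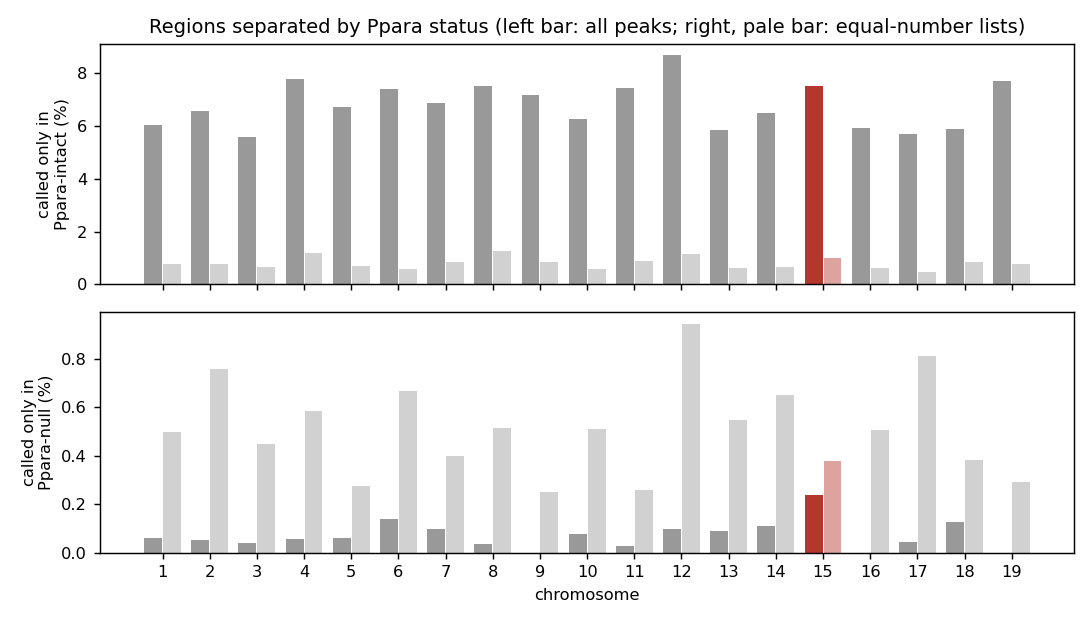
Intact-only share (upper panel) and null-only share (lower panel) of the regions of each of the 19 autosomes, in percent, with all peaks (left bar) and with equal-number lists (pale right bar); chromosome 15 is red. Its intact-only shares of 7.50% and 0.997% both rank 4, and its null-only share is the highest with all peaks (0.237%) but ranks 15 in the equal-number lists (0.380%).

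Distance from Ppara was examined in windows around the gene. Within 10 Mb on either side lay 725 regions, of which 70 (9.66%, against 6.82% over all regions) were intact-only and 3 (0.414%, against 0.0686%) null-only. The intact-only share was 8.39% of 1239 regions within 20 Mb, 10.7% of 382 within 5 Mb and 12.6% of 127 within 2 Mb. It was 14.3% of 91 within 1 Mb and 15.8% of 76 within 0.5 Mb. These windows are nested, so that the smaller are part of the larger. In the equal-number lists the shares were 1.05% within 20 Mb, 1.24% within 10 Mb and 1.83% within 5 Mb, against 0.811% over all regions. The windows of 2, 1 and 0.5 Mb then held 2 (1.58%), 1 (1.10%) and 1 (1.32%) intact-only regions. No null-only region lay within 2 Mb, and 1 lay within 5 Mb.

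Relative to its own share elsewhere, the called share within 10 Mb differed by 3.23 and 3.00 points in WT and by 0.788 and 0.694 points in Cpt2 L-/-. In Ppara -/- it differed by -3.04 and -1.42 points, and in the double knockout by 2.16 and 0.330 points. Double knockout replicate 1 lay above both Cpt2 L-/- libraries, so the groups overlapped. The means were 1.93 ± 1.38 points in Ppara-intact and -0.490 ± 2.24 in Ppara-null libraries (SD, n = 4 each). The exact two-sided permutation test of this difference of 2.42 points gave p = 0.114 (0.152 adjusted). By Cpt2 status the difference in this window was -0.550 points, with an exact permutation p of 0.771.

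Within 5, 10 and 20 Mb, both Ppara -/- libraries lay below both double knockout libraries. Within 5 Mb, Ppara -/- stood at -4.14 and -2.25 points from its own level elsewhere, and the double knockout at 0.955 and 0.717 points. That order was not tested. In the same window Cpt2 L-/- stood at -1.26 and -0.625 points, and WT at 5.13 and 0.758. Cpt2 L-/- changed sign in the equal-number lists, to 1.76 and 1.79 points, and WT stood at 5.46 and 6.00. There Ppara -/- stood at -4.31 and -1.98 points and the double knockout at 2.07 and 0.717.

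The result by Ppara status depended on the window and the threshold. Within 20 Mb, the 4 Ppara-intact libraries stood at 0.526 to 1.80 points from their own level elsewhere and the 4 Ppara-null libraries at -3.53 to -0.608 points. These groups did not overlap, and the difference of 3.49 points had an unadjusted exact permutation p of 0.0286, the smallest possible. Within 10 Mb, peaks with a −log10 q of at least 20 gave 3.39 points with the same unadjusted exact permutation p, and the equal-number lists gave 4.01 points with p = 0.0571. Within 5 Mb the difference was 2.18 points with an exact permutation p of 0.343.

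**Figure D3:**
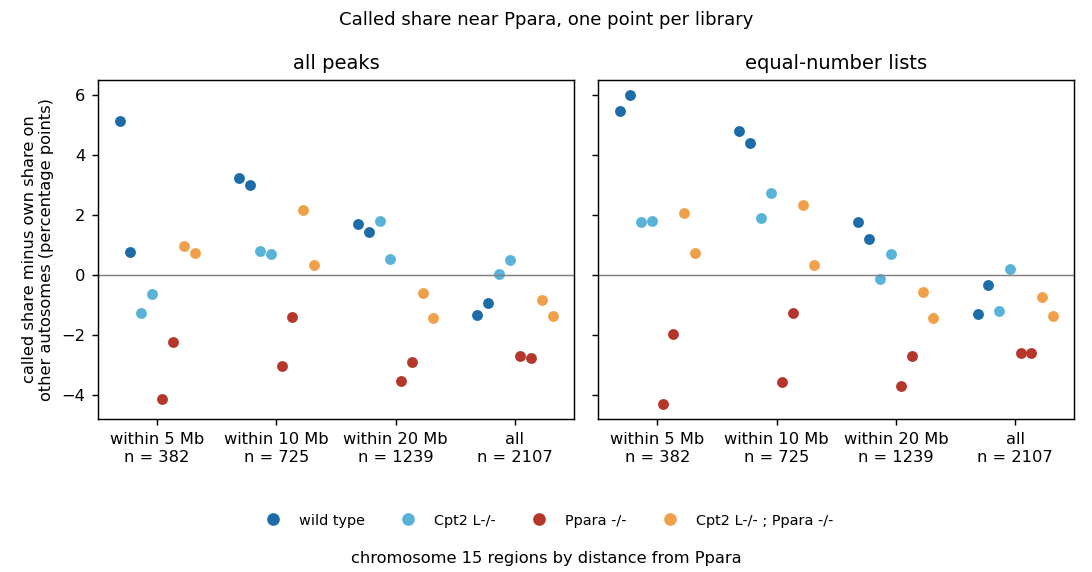
Called share of chromosome 15 regions minus the same library's called share on the other autosomes (percentage points), within 5, 10 and 20 Mb of Ppara and for the whole chromosome, with all peaks (left) and equal-number lists (right); each point is 1 library. Ppara -/- is the lowest genotype in every window, and the double knockout lies above 0 within 5 and 10 Mb.

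In fixed bins of 5 Mb, the bin from 85 to 90 Mb, which holds Ppara, had the highest intact-only share on the chromosome, with 23 of 160 regions (14.4%). Among 458 bins of the other autosomes with at least 10 regions, 2 had a share as high, with 7 of 40 regions on chromosome 11 (35 to 40 Mb) and 8 of 47 on chromosome 6 (100 to 105 Mb). With all peaks and all libraries, none of the 206 such bins with at least 100 regions did, a size cut added to the planned 10 regions. This did not hold under every other rule. Of these 206 bins, 18 were as high as the Ppara bin in the equal-number lists and 90 under the −log10 q cut of 20. Without WT replicate 1 it was 20, and 1 each with 50% cover and without Ppara -/- replicate 1. Without the 10 regions at Ppara, 20 of 150 (13.3%) were intact-only, and without every region within 1 Mb of the gene 11 of 79 (13.9%). In the equal-number lists 3 of 160 (1.88%) were intact-only, against 0.805% on the other autosomes, and 54 of the 458 other bins had a share as high. At a −log10 q of at least 20, 16 of 160 (10.0%) were intact-only, against 8.96% on the other autosomes, and 144 bins were as high. With 50% cover it was 26 of 160 (16.25%), against 8.62% on the other autosomes, and 9 bins were as high. Without WT replicate 1, the bin had 27 such regions (16.9%, against 11.8% on the other autosomes) and 44 bins were as high. Leaving out any other library gave 23 to 27 regions and 2 to 8 bins as high, with 7.18% to 8.97% on the other autosomes.

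The other bins of chromosome 15 varied as widely. From 30 to 35 Mb, more than 50 Mb from Ppara, 10 of 74 regions (13.5%) were intact-only. From 25 to 30 Mb and from 40 to 45 Mb it was 0 of 69 and 0 of 46. Next to the Ppara bin, 19 of 236 (8.05%) were intact-only from 80 to 85 Mb and 3 of 51 (5.88%) from 90 to 95 Mb. The 302 regions from 75 to 80 Mb, the most in any bin of the chromosome, held 27 (8.94%). The fall in called share from Ppara-intact to Ppara-null libraries ran from 21.1 to 38.8 points over the 18 bins with at least 10 regions, with a median of 31.4. It was largest from 65 to 70 Mb (38.8 points), 34.4 points in the Ppara bin and smallest from 90 to 95 Mb. Of the 458 other bins, 83 had a fall as large as the Ppara bin, so that it stood higher among all bins by intact-only share than by this mean fall. Relative to its own share on the other autosomes, WT called 9.34 and 1.37 points more in the Ppara bin, and Cpt2 L-/- differed by -0.195 and 0.569 points. Ppara -/- differed by -3.76 and -0.135 points and the double knockout by -0.845 and -0.0451, so that Cpt2 L-/- replicate 1 lay among the Ppara-null libraries. In 10 of the 18 bins the fall was larger than the 30.4 points of the other autosomes.

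**Figure D4:**
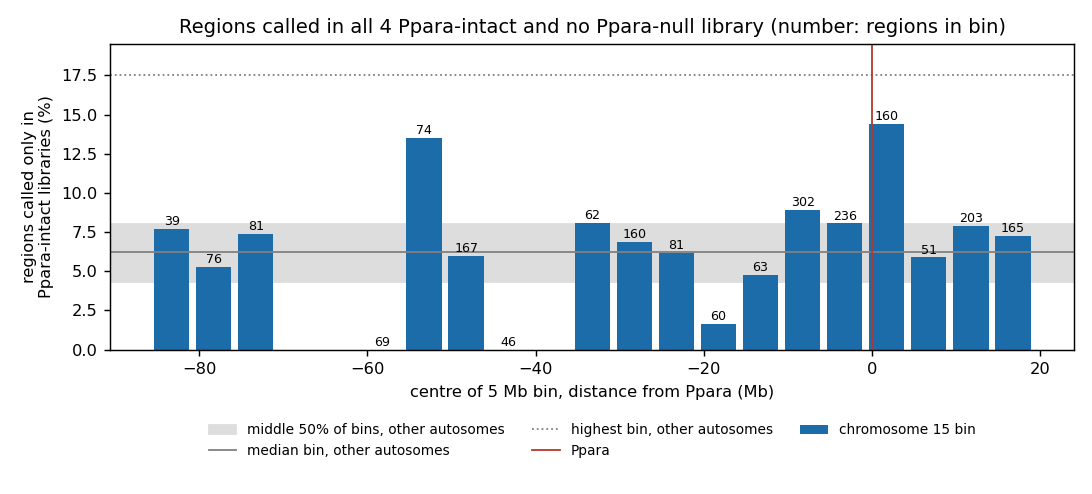
Intact-only share (percent of regions) in bins of 5 Mb along chromosome 15 with at least 10 regions, by distance of the bin's centre from Ppara in Mb, with the number of regions above each bar. The Ppara bin stands at 14.4%, above the median of 6.25% (grey line) and the quartiles of 4.30% and 8.03% (grey band) of the 458 bins of other autosomes, whose highest is 17.5% (dotted).

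**Figure D5:**
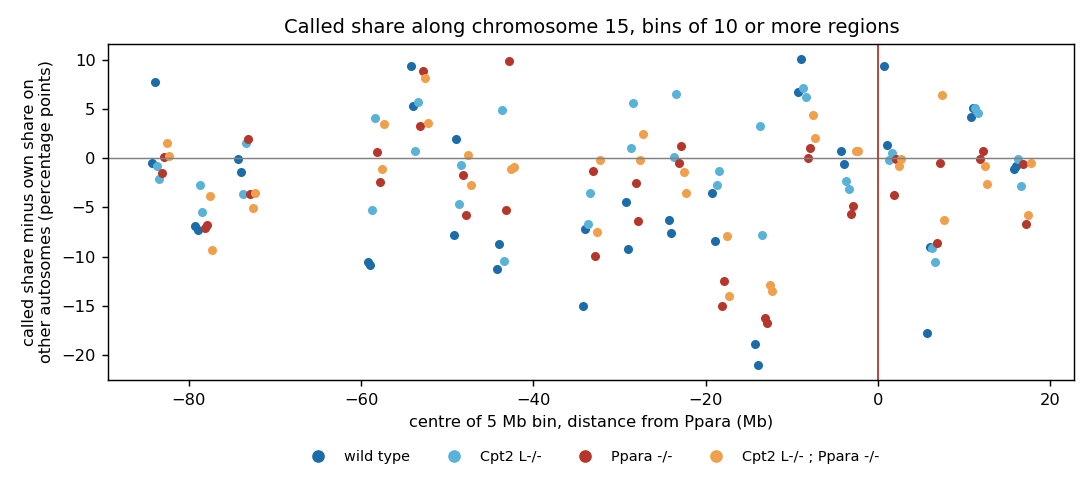
Called share in each bin of 5 Mb with at least 10 regions minus the same library's share on the other autosomes (percentage points), by distance of the bin's centre from Ppara in Mb; each point is 1 library coloured by genotype. The libraries are mixed in most bins, and in the Ppara bin WT replicate 1, at 9.34 points, stands above the other 7, at -3.76 to 1.37.

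The 23 intact-only regions of the Ppara bin were spread over the neighbourhoods of 12 genes or gene pairs. On the side toward the centromere they included 1 inside Wnt7b, which encodes a secreted Wnt ligand (85570344 to 85570671), and 1 at 43802 bp from it. A further 4 lay 17488 to 58859 bp before Ppara, and 3 inside it. Beyond Ppara, 2 lay inside Celsr1, a cadherin of planar cell polarity (85962759 to 85963101 and 85963270 to 85963821), and 1 inside Cerk, the ceramide kinase (86158949 to 86159390). More distal members were 2 regions over 200 kb from Tafa5, 2 within 1 kb of the start of Brd1, a chromatin reader gene, and 2 inside Ttll8. Single regions lay at Gm33049, Tubgcp6 with Hdac10, Plxnb2, Ppp6r2 and Arsa, the lysosomal arylsulfatase A.

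Most of these were of middling strength. Their mean rank within the Ppara-intact lists, where 100 is the strongest peak, ran from 20.3 to 88.2 with a median of 40.2, against medians of 38.1 for all intact-only regions of the chromosome and 37.9 on the other autosomes. The strongest was the region at 85774288 inside Ppara. The others that stayed intact-only in the equal-number lists were 87326240 to 87326666 near Tafa5 and 88892281 to 88892664 inside Ttll8. The former had −log10 p values of 30.95 and 68.83 in WT and 66.33 and 32.84 in Cpt2 L-/-. The latter had 27.32 and 60.33 in WT and 72.04 and 36.34 in Cpt2 L-/-. The nearest Ppara-null peaks lay 270595 to 864000 bp from the region near Tafa5 and 717 to 9866 bp from that inside Ttll8.

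Outside the Ppara bin, the strongest intact-only region (62302187 to 62302751, at -23.5 Mb from Ppara) lay 311826 bp from Myc, a growth-promoting transcription factor gene. It had −log10 p of 43.52 and 126.2 in WT and 99.9975 and 133.7 in Cpt2 L-/-. A region inside Ghr, the growth hormone receptor (3452131 to 3452503, at -82.3 Mb from Ppara), had 45.28 and 62.67 in WT and 78.8 and 61.21 in Cpt2 L-/-. A region 52109 bp from Cyp2d40, a cytochrome P450 gene (82707182 to 82707724, at -3.06 Mb), had 41.62, 97.24, 93.76 and 40.5. Each Ppara-null library had a peak 246 to 323 bp from that region. A region inside Bik, which encodes a cell death promoting protein (83530268 to 83531059, at -2.24 Mb), had 41.23, 57.9, 77.68 and 50.01. The nearest Ppara-null peaks lay 6543 to 6583 bp from the region near Myc. They lay 12169 to 12283 bp from that inside Ghr and 5988 to 19184 bp from that inside Bik. Negative distances lie on the side of the centromere. Together with the region inside Ppara these are the 5 of highest mean rank, and all 5 were intact-only in the equal-number lists too.

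The 5 null-only regions lay in 5 different bins, none in the Ppara bin, and 6.02 to 25.6 Mb from Ppara except for 1 at 3.41 Mb. The strongest spans the start of Gm41331 (60141663 to 60142122, 125045 bp from the coding gene 4933412E24Rik), whose upstream window is printed above. It had −log10 p of 104.1 and 122.7 in Ppara -/- and 81.23 and 106.4 in the double knockout, and a deposited fold over background of 16.9 to 21.6. These peaks stood at the 95.8th to 99.5th percentile of their lists, and no Ppara-intact library had a peak within 129867 bp. Of the 34 null-only regions of the genome it ranked 1 by strength.

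A region 2507 bp from Mfng, a glycosyltransferase acting on Notch receptors (78752999 to 78753375), ranked 2 of the 34. It had −log10 p of 38.55 and 53.23 in Ppara -/- and 32.17 and 50.69 in the double knockout, and the nearest Ppara-intact peaks lay 2647 to 25160 bp away. A region 4108 bp from Ndufa6, a subunit of respiratory complex I (82358399 to 82358729), had weaker peaks of 13.52, 12.32, 17.43 and 24.41. These 3 regions were null-only in the equal-number lists as well.

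The other null-only regions, inside the kinase gene Lrrk2 (91785907 to 91786561) and inside the sodium channel gene Scn8a (100917200 to 100917911), were near the limit of calling. Their −log10 p values were 10.0 to 16.0 and 11.4 to 14.4, and each was called in 2 of the 4 Ppara-null equal-number lists. The 5 regions that were null-only in the equal-number lists alone lay near Slc1a3, Retreg1, Fzd6, Csnk1e and Tmem117. With all peaks these had been called in 5 to 8 libraries.

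Pairs of genotypes were compared by regions called in both libraries of one and in neither of the other; the pairs share libraries and are not independent. WT against Ppara -/- gave 324 chromosome 15 regions called in WT only (15.4%, against 13.6% over all regions). It gave 16 called in Ppara -/- only (0.759%, against 0.46%). Cpt2 L-/- against the double knockout gave 448 called in Cpt2 L-/- only (21.3%, against 20.4%) and 14 in the double knockout only (0.664%, against 0.597%). Within 10 Mb of Ppara WT only had 144 of 725 regions (19.9%, against 13.5% on the other autosomes) and Ppara -/- only 7 (0.966%, against 0.450%). In the other pair Cpt2 L-/- only had 146 of 725 (20.1%, against 20.3%) and the double knockout only 8 (1.10%, against 0.591%). With all peaks the counts of the pairs within 10 Mb were close, unlike the 324 and 448 of the whole chromosome. Of the WT and Cpt2 L-/- shares within 10 Mb, only that of WT stood above the other autosomes. In the equal-number lists the whole chromosome had 87 regions called in WT only (4.13%, against 3.44% over all regions) and 43 in Ppara -/- only (2.04%, against 2.38%). The other pair had 73 in Cpt2 L-/- only (3.47%, against 2.99%) and 53 in the double knockout only (2.52%, against 2.61%). Within 10 Mb of Ppara these lists had 45 of 725 regions (6.21%, against 3.41% on the other autosomes) in WT only and 8 (1.10%, against 2.39%) in Ppara -/- only. They had 26 (3.59%, against 2.98%) in Cpt2 L-/- only and 16 (2.21%, against 2.62%) in the double knockout only. In these lists the counts themselves lay apart. No difference between the pairs was tested.

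The strongest regions of these pairs differed in what the remaining libraries showed. A region inside Srebf2, the transcription factor of cholesterol synthesis (82183517 to 82184050), had −log10 p of 69.95 and 122.5 in WT and 79.38 and 60.21 in Cpt2 L-/-. It was called in neither Ppara -/- library, whose nearest peaks lay 576 and 617 bp away, and at 21.99 in double knockout replicate 1 alone. A region 129561 bp from Trib1, a pseudokinase gene linked to plasma lipids (59786660 to 59787127), had 67.98 and 110.6 in WT and 52.75 and 60.91 in Cpt2 L-/-. It was again called in neither Ppara -/- library, but in both of the double knockout, at 40.22 and 54.82. In the opposite direction of both pairs, the regions at Gm41331 and near Mfng were the strongest.

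The Cpt2 comparisons were smaller. Against WT, Cpt2 L-/- had 96 regions of its own (4.56%, against 3.63% over all regions) and WT had 11 (0.522%, against 0.512%). Against Ppara -/-, the double knockout had 48 (2.28%, against 2.33%) and Ppara -/- had 26 (1.23%, against 1.45%). In the equal-number lists Cpt2 L-/- had 25 (1.19%, against 0.918%) and WT 14 (0.664%, against 0.815%). There the double knockout had 46 (2.18%, against 2.03%) and Ppara -/- 35 (1.66%, against 1.84%). The strongest called in Cpt2 L-/- only (88370355 to 88370758, 229544 bp from Zdhhc25) had 37.49 and 39.22 in Cpt2 L-/-. It was also called in all 4 Ppara-null libraries, at 15.36 to 55.71, so that WT alone lacked it. The next, 53640 bp from Azin1 (38433482 to 38433790), had 30.16 and 38.35 in Cpt2 L-/- and no peak in any other library. WT had its own regions 1617 bp from Ranbp3l (25.78 and 17.26) and inside Rbfox2 (21.52 and 17.97), both absent from the other 6 libraries. Between the Ppara-null genotypes, the double knockout had its own region 14623 bp from Mchr1 (26.61 and 30.74), which was also called in Cpt2 L-/- replicate 2 (18.41). The regions of Ppara -/- against the double knockout, 71553 bp from C1qtnf3 and inside Sdc2, were also called in all 4 Ppara-intact libraries.

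Gene groups on the chromosome were described by the regions within 1 kb of their genes, where 7.50% of all chromosome 15 regions were intact-only. At the 13 genes flanking and including Ppara, 7 of 47 regions (14.9%) were intact-only, which were 3 at Ppara, 2 at Celsr1 and 1 each at Wnt7b and Cerk. The other 9, among them Fbln1, Atxn10, Gramd4 and Tbc1d22a, had none. At 25 lipid and mitochondrial genes, 7 of 84 regions (8.33%) were intact-only. They lay at Ghr (2), Tspo, a cholesterol-binding protein of the outer mitochondrial membrane (2), Gpt, an alanine aminotransferase (1), Pnpla3, a lipid droplet protein (1), and Abcd2, a peroxisomal fatty acid transporter (1). Transcription factors and cofactors had 3 of 22, with 2 at Brd1 and 1 at the deacetylase gene Hdac7. Complement genes and receptors had 2 of 28, at the cytokine receptor gene Lifr and the prolactin receptor gene Prlr. The Cyp2d genes, a cluster of closely related cytochrome P450 genes, had 0 of 10, and calls there are uncertain where reads could be split between near-identical copies. No list held a null-only region, and in the equal-number lists the intact-only regions were 1 at the flanking genes, 1 at the lipid genes and 0 at the rest.

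In position and width the chromosome 15 regions were like those elsewhere. Within 1 kb of a gene's start or end lay 24.4% of them against 25.8% on the other autosomes, and the median width was 382 bp against 381 bp. Called in all 8 libraries were 436 (20.7%) against 22.9%, and called in 1 library 489 (23.2%) against 23.0%. Within 10 Mb of Ppara, 30.1% lay near a gene end. Intact-only regions lay near a gene end in 24.1% on chromosome 15 and in 18.4% elsewhere.

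The 436 regions called in all 8 libraries allow strength to be compared without missing calls. Each was ranked by −log10 p within a library among the regions called in all 8, with 100 the strongest. Those of chromosome 15 had mean ranks of 51.6 to 53.5 in Ppara-intact libraries, 49.3 and 49.8 in Ppara -/- and 53.1 in both double knockout libraries, where the other autosomes had 49.9 to 50.03. Within 10 Mb of Ppara, the 161 regions had mean ranks of 57.7 and 57.6 in WT and 56.5 and 54.3 in Cpt2 L-/-. There Ppara -/- had 52.0 and 49.8 and the double knockout 54.1 and 54.6, so that Ppara -/- was again lowest. Of the 161, 20 (12.4%) had all 4 Ppara-intact ranks above all 4 Ppara-null ranks and 11 (6.83%) the reverse, where the other autosomes had 5.72% and 6.86%. On the whole chromosome these were 35 (8.03%) and 25 (5.73%). This measure was added after the data had been seen and carries no test.

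The widest such gap toward Ppara-intact libraries was inside Pacsin2, a membrane-shaping protein gene (83451546 to 83452134), where Ppara-intact libraries had ranks of 53.5 to 76.1 and Ppara-null libraries of 6.1 to 28.9. The next were at C1qtnf6 and Pla2g6, which encodes a phospholipase. The widest gap the other way was near Rbfox2, a splicing factor gene (77077839 to 77078279), where Ppara-intact libraries had ranks of 2.3 to 21.4 and Ppara-null libraries of 58.9 to 84.9. It was followed by a region 510547 bp from Myc (62500908 to 62501413), whose Cpt2 L-/- replicate 2 rank of 46.8 stood apart from 2.3 to 4.9 in the other 3 Ppara-intact libraries.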

How the data were processed

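ATAC-seq peak lists of 8 libraries (2 for each of 4 genotypes) and a consensus table were used as deposited. Per the submitters' processing notes, BWA, MACS2 2.1.0 and mm10 were used; peaks come as 1 list per library, per the file headers and peak names. Each deposited peak carries the authors' fold (a ratio to local background) and their −log10 p and −log10 q. The consensus table gives positions only, so depth is unknown and read counts were not analysed here.

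Any overlap of 1 bp or more between peak and region made a call. Libraries were grouped by labelled genotype, and single values were compared by exact two-sided permutation tests over 70 orders (SciPy 1.17.1, NumPy 2.4.6, pandas 2.3.3, Python 3.11.15; plots in matplotlib 3.10.9). Calls per region were counted without a test, and the counting was tested on simulated data. Distances run from the middle of a region to the middle of Ppara for bins and windows, and from nearest edges for genes. Gene positions (21900 protein-coding genes) and start-site windows came from RefSeq on GRCm38.p6; start coordinates are 1-based.

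Named were all regions at Ppara, all null-only regions, the 5 intact-only regions of highest mean rank, the 2 strongest per direction of each genotype pair, and regions at the listed genes. The intact-only regions of the Ppara bin, those null-only in equal-number lists alone, the Tnrc6b starts and the regions of widest rank gap were named after their values were seen. The members and lists were chosen with earlier results of these data known. Alternatives were equal-number lists, a −log10 q of at least 20, 50% cover of a region, only regions called in at least 2 libraries, windows of 5 and 20 Mb, omission of each library and a permutation kept within replicate numbers.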

Additional observations from a re-analysis of the deposited data

How the results depend on the processing

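The files give no depth, so an uncalled region cannot be read as closed, and 2 libraries per genotype limit every test. Within 10 Mb of Ppara, the difference by Ppara status was 3.39 points for peaks with −log10 q from 20 upward and 3.49 points with a window of 20 Mb (exact permutation p = 0.0286 each). That by Cpt2 status changed sign to 0.990 points at a −log10 q of at least 20, to 0.612 without Ppara -/- replicate 1 and to 0.0701 without Ppara -/- replicate 2. The cause was not tested.

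With equal-number lists, which hold fewer peaks of the longer lists, chromosome 15 counts were 21 intact-only and 8 null-only regions. In these lists they were 43 in Ppara -/- only and 87 in WT only, 53 in the double knockout only and 73 in Cpt2 L-/- only of that pair, and 25 in Cpt2 L-/- only against WT. At a −log10 q of at least 20, 2 were null-only (0.0949%, against 0.0193% on the other autosomes) and 2 in Ppara -/- only against WT (0.0949% against 0.0857%). The double knockout only against Cpt2 L-/- had 5 (0.237% against 0.184%), Cpt2 L-/- only against WT 47 (2.23% against 2.22%), WT only of that pair 3 (0.142% against 0.158%), and Ppara -/- only against the double knockout 14 (0.664% against 0.696%). With 50% cover, 3 regions were null-only (0.142% against 0.05995%); that rule cannot be applied to the share of peaks.

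Leaving out each library, which asks for fewer calls, gave 166 to 259 intact-only (259 without WT replicate 1) and 5 to 8 null-only regions (8 without double knockout replicate 2). The intact-only share on the other autosomes rose as well, from 6.78% to between 7.18% and 11.8%, the highest without WT replicate 1. WT against Ppara -/- gave 404 to 666 in WT only (666 without WT replicate 1) and 18 to 57 in Ppara -/- only. Cpt2 L-/- against the double knockout gave 503 to 737 (737 without Cpt2 L-/- replicate 2) and 23 to 57. Cpt2 L-/- against WT gave 117 to 273 and 26 to 121, and the double knockout against Ppara -/- gave 78 to 204 and 40 to 96. For the null-only and pair counts no share elsewhere is given with a library left out. These counts therefore do not set chromosome 15 against the other autosomes. The differences by Ppara status ran from 1.17 to 1.85 points on the chromosome and from 1.57 to 3.30 within 10 Mb, and that in the share of peaks from 0.156 to 0.245. By Cpt2 status they ran from -1.86 to -1.22 and from -1.48 to 0.612.

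Same-numbered libraries did not deviate together (correlations of -0.0321 to 0.0253). The labels do not say what the replicate numbers stand for, and with 2 libraries per genotype these values cannot exclude a pairing. With a replicate block (36 orders, smallest p 0.0556) the differences of 1.49, 2.42, -1.53, -0.550 and 0.196 points are the same by construction. No call could change either, because no main p was at or below 0.05 and a block p cannot be. The exact permutation p-values were 0.167 on the chromosome and 0.167 within 10 Mb by Ppara status, 0.111 and 0.778 by Cpt2 status, and 0.111 for the share of peaks.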
